A study of Homo sapiens with 4 samples.

Results

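The dystrophin, syntrophin and sarcoglycan genes were followed in HGC-27 cells, an established gastric carcinoma cell line, after knockdown of USP47. They are 9 genes (SNTB1, SNTB2, DMD, UTRN, DAG1, DTNA, DTNB, SGCB and SGCE) of the 63568 gene identifiers in each count file, and all 9 were matched by symbol to 1 identifier. The set was chosen by the measured fold change of SNTB1 between USP47 shRNA and control shRNA, with the other complex genes added by name, so the difference between the groups is given for each of the 9 genes as a description, without a p-value. SNTB1, which encodes beta-1-syntrophin, stood at 59.2 ± 1.36 CPM (SD, n = 2) in control cells and at 16.7 ± 4.4 CPM (SD, n = 2) in knockdown cells, where CPM are reads divided by the scaled depth of the library. SGCB, which encodes beta-sarcoglycan, stood at 46.2 ± 0.167 and 24.9 ± 2.36 CPM (SD, n = 2 each). The transcripts of the partners that remained measurable, namely utrophin, dystroglycan, the second beta-syntrophin, beta-dystrobrevin and epsilon-sarcoglycan, had fold changes between 0.94 and 1.22, and DMD itself was represented by 2 or 3 reads in each library.

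The cells had been infected with lentivirus carrying either a scrambled control shRNA or an shRNA against USP47, a ubiquitin-specific protease, and the stable lines were selected with puromycin. The series text also speaks of DMSO as vehicle for control cells, which the sample labels do not mention, so whether the control libraries here differ from the knockdown in DMSO as well is not known. There were 2 libraries of polyA RNA per group, all from HGC-27 cells, and the sources used here do not say which of the study's USP47 shRNAs each knockdown library carries. The series text calls the samples biological duplicates. The p-values therefore rest on the spread between 2 samples per group, which edgeR moderates for each gene by the spread over all genes tested. Total counts lay between 15649899 and 20140273 per library. The control libraries held 1357 and 1297 reads of USP47 and the knockdown libraries 749 and 309, which left 49.3% and 29.5% of the mean control level (log2 fold change -1.34, standard error 0.21, and, from edgeR's quasi-likelihood fit, adjusted p = 0.00362). All counts are of bulk RNA, in which fewer expressing cells and less RNA per cell cannot be told apart.

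The complex links the actin cytoskeleton to the extracellular matrix and is best known from muscle, where its loss causes muscular dystrophies. Dystrophin or its autosomal relative utrophin binds actin inside the cell and beta-dystroglycan at the membrane, while alpha-dystroglycan, cut from the same precursor, binds laminins outside through its sugar chains. Sarcoglycans form a membrane subcomplex beside dystroglycan. Dystrobrevins and syntrophins bind the carboxy-terminal part of dystrophin or utrophin on the cytoplasmic side, and the PDZ domain of the syntrophins recruits channels, kinases and transporters. Outside muscle, utrophin, the beta-syntrophins, beta-dystrobrevin and epsilon-sarcoglycan are the usual forms of the complex.

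In control cells the order of the 9 genes, compared per length in the TPM values that the authors deposited (reads scaled to gene length and then to the library), was the same in both libraries. DAG1 was highest, at 17.8 and 18.1 TPM. It was followed by SGCB (14.8 and 13.1 TPM), SNTB2 (14.2 and 13.0), SNTB1 (13.0 and 11.1), UTRN (11.9 and 8.95), SGCE (7.99 and 6.65) and DTNB (4.02 and 3.86). SGCB and SNTB2, SNTB2 and SNTB1, and SNTB1 and UTRN did not differ beyond the spread between the 2 control libraries. DTNA and DMD stood far below the rest, DTNA at 0.0475 and 0.0414 TPM and DMD at 0.00945 and 0.00719 TPM. The level of DMD rests on 2 reads in each control library and on 3 and 2 reads in the knockdown libraries, all at or under the floor of 3 counts per library used here, so no fold is given. The floor corresponds to between 0.0108 and 0.0142 TPM of DMD. In the knockdown libraries the lowest of the 7 well-measured genes was SNTB1 in replicate 1, at 2.92 TPM, and DTNB in replicate 2, at 2.81 TPM, with SNTB1 at 3.18 TPM.

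**Figure D1:**
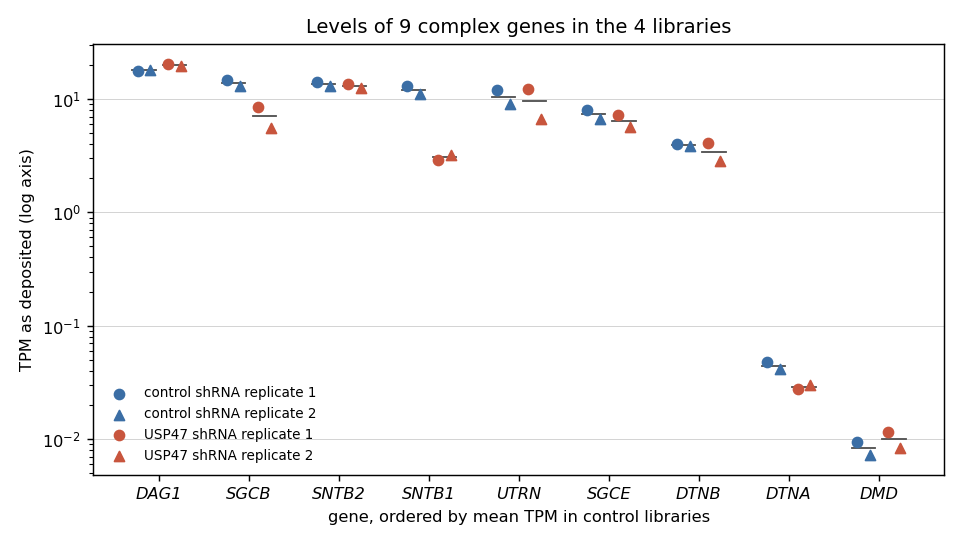
TPM as deposited (log axis) of the 9 genes in each of the 4 libraries, with circles for replicate 1, triangles for replicate 2 and a short line at each group's mean (n = 2). The values of the 7 genes with more reads lie between 2.81 and 20.6 TPM, whereas DTNA and DMD lie below 0.05 TPM in every library.

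The sequence before the gene starts is shown for the members whose level or difference the results turn on. RefSeq windows of the 250 bases before each annotated start were at hand for 7 of the 9 genes (SNTB1 and SGCE had none), 22 windows in all, and each was found once in GRCh37, the build of the files. The CG dinucleotide, which reads the same on both strands, was counted in each. Over all 35116 windows of the table the median was 11 CG pairs, and 52.2% of windows held at least 10. The first listed window held 22 CG pairs for SNTB2, 24 for UTRN, 24 for DAG1, 43 for DTNB and 21 for SGCB. The 7 windows of DMD held between 1 and 8, and the 7 windows of DTNA between 1 and 10. Alternative starts of UTRN and DTNB, with 3 and 2 pairs, were as poor. The data give counts per gene and not per start, so which window was in use was not tested. Shown here are UTRN, the dystrophin relative that was measurable, DTNA, which was nearly silent, and SGCB and SNTB2, of which SGCB alone was called lower in the knockdown. Windows that reach over 30 bases into annotated exons are not shown. Each is the first listed window, 5′ to 3′ on the gene's strand, with CG pairs in capitals.
UTRN, GRCh37 chr6:144606221-144606470, + strand: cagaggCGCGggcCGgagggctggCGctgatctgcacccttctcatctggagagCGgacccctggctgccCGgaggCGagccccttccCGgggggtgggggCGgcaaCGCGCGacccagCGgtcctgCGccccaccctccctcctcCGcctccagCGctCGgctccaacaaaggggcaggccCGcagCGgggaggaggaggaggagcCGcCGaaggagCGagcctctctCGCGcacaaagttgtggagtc
DTNA, GRCh37 chr18:32073026-32073275, + strand: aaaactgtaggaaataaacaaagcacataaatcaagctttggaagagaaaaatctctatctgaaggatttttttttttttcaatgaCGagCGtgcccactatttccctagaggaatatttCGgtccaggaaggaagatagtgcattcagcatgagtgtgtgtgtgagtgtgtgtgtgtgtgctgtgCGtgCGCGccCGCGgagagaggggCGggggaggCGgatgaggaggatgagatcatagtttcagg
SGCB, GRCh37 chr4:52904466-52904715, - strand: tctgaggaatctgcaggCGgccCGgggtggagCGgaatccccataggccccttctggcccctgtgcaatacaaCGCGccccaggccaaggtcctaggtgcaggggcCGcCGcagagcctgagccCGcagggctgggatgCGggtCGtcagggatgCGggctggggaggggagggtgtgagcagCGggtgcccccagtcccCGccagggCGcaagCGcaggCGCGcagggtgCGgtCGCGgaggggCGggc
SNTB2, GRCh37 chr16:69220817-69221066, + strand: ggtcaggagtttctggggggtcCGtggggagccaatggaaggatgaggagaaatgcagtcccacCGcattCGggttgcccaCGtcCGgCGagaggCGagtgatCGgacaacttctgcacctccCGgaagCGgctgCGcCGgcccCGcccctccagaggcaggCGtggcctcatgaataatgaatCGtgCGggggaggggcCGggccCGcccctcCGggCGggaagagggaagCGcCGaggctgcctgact

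DAG1 (ENSG00000173402.7, chromosome 3 of GRCh37, 49506146 to 49573051, + strand) encodes the precursor of alpha- and beta-dystroglycan. It had 1432 and 1913 reads with control shRNA and 2036 and 1794 with USP47 shRNA. Scaled to library size, this came to 84.4 and 97.5 CPM against 97.9 and 125 CPM. The groups did not overlap, the second knockdown library standing much further above the controls than the first, and the log2 fold change was 0.29 (standard error 0.15). It was 0.11 without USP47 shRNA replicate 2 and 0.47 without USP47 shRNA replicate 1, a fit in which DAG1 was called higher, as it was with the replicate number as a block (0.29).

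Of the pair of actin-binding proteins that dystroglycan can anchor, UTRN carried practically all the reads. UTRN (ENSG00000152818.14, chromosome 6, 144606471 to 145174170, + strand) had 118 and 101 CPM with control shRNA and 122 and 89.3 CPM with USP47 shRNA, so that the knockdown libraries lay on either side of the controls. The log2 fold change was -0.04 (standard error 0.16), and it changed sign when libraries were left out, from -0.28 without USP47 shRNA replicate 1 to 0.17 without USP47 shRNA replicate 2. DMD (ENSG00000198947.10, chromosome X, 31115794 to 33357726, - strand) is a single entry over a gene with several promoters, so full-length dystrophin and its short forms are summed in its 2 to 3 reads. No word of 30 bases was shared between annotated transcripts of DMD and UTRN, nor within the pairs SNTB1 and SNTB2, DTNA and DTNB, or SGCB and SGCE.

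Among the sarcoglycans, SGCB was lower in the knockdown and SGCE was close to its control level. SGCB (ENSG00000163069.8, chromosome 4, 52886872 to 52904465, - strand) was counted 781 and 908 times with control shRNA and 552 and 333 times with USP47 shRNA. In CPM the controls stood at 46.1 and 46.3 and the knockdown libraries at 26.5 and 23.2, or 57.5% and 50.3% of the control mean. The controls hardly differed and the groups lay far apart (log2 fold change -0.89, standard error 0.13). SGCE (ENSG00000127990.11, chromosome 7, 94153516 to 94285884, - strand), the form that takes the place of alpha-sarcoglycan outside muscle, had 14.0 and 13.2 CPM against 12.7 and 13.2 CPM, and the groups overlapped (log2 fold change -0.07, standard error 0.15). PEG10, an imprinted gene on the opposite strand whose exons overlap those of SGCE at their shared promoter, was counted 5251, 6171, 5698 and 4259 times in the same order of libraries (log2 fold change -0.13, standard error 0.13, adjusted p = 0.535, by edgeR). It has many more reads than SGCE, and where their exons overlap the reads cannot be told apart without strand, whose use in counting is not given in the sources used here.

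The 2 beta-syntrophins, adaptor proteins with a PDZ domain, parted. SNTB1 (ENSG00000172164.9, chromosome 8, 121547985 to 121825513, - strand) had 1020 and 1142 reads in control cells and 282 and 284 in knockdown cells. This came to 60.1 and 58.2 CPM against 13.6 and 19.8 CPM, so that 22.9% and 33.4% of the control mean remained. The library with the lower USP47 level, replicate 2, was the one with the higher SNTB1 level. The log2 fold change was -1.84 (standard error 0.18), and 167 of the 21932 genes tested had a lower one. SNTB2 (ENSG00000168807.12, chromosome 16, 69221050 to 69342955, + strand) had 96.2 and 99.96 CPM with control shRNA and 93.1 and 115 CPM with USP47 shRNA. Its groups overlapped, and the log2 fold change was 0.08 (standard error 0.14).

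Since both beta-syntrophins can occupy the same sites on dystrobrevin and utrophin, their levels were also summed per length. SNTB1 made up 47.8% and 46.0% of the summed TPM of SNTB1 and SNTB2 with control shRNA and 17.6% and 20.2% with USP47 shRNA. The sum itself was 27.2 and 24.1 TPM with control shRNA and 16.6 and 15.8 TPM with USP47 shRNA, and SNTB2 within it stood at 14.2 and 13.0 against 13.7 and 12.6 TPM.

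Exons of SNTB1 are overlapped from the opposite strand by MTBP and by a long noncoding RNA (ENSG00000272502), and another long noncoding RNA (ENSG00000248318) lies opposite its introns. MTBP had 2706 and 2827 reads with control shRNA and 2745 and 1361 with USP47 shRNA (log2 fold change -0.42, standard error 0.16, adjusted p = 0.108, by edgeR). ENSG00000248318 fell from 127 and 119 to 52 and 31 counts (log2 fold change -1.52, standard error 0.21, adjusted p = 0.00216, by edgeR). ENSG00000272502, named only after its values were seen, had 11 and 13 against 4 and 0 counts (log2 fold change -2.46, standard error 0.71, adjusted p = 0.0390, same test), far fewer reads than SNTB1. Whether any of these reads belong to SNTB1 transcripts was not tested.

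The dystrobrevins, which tie syntrophins to the rest of the complex, showed the same split by level as the dystrophins. DTNB (ENSG00000138101.14, chromosome 2, 25600067 to 25896516, - strand) had 19.7 and 21.6 CPM in control libraries and 20.1 and 18.5 CPM in knockdown libraries, and its groups overlapped (log2 fold change -0.10, standard error 0.14). Its antisense gene DTNB-AS1, which overlaps its exons, had between 8 and 12 counts in each library. DTNA (ENSG00000134769.17, chromosome 18, 32073255 to 32471808, + strand) was counted 7, 8, 5 and 5 times and was too low to be tested.

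**Figure D2:**
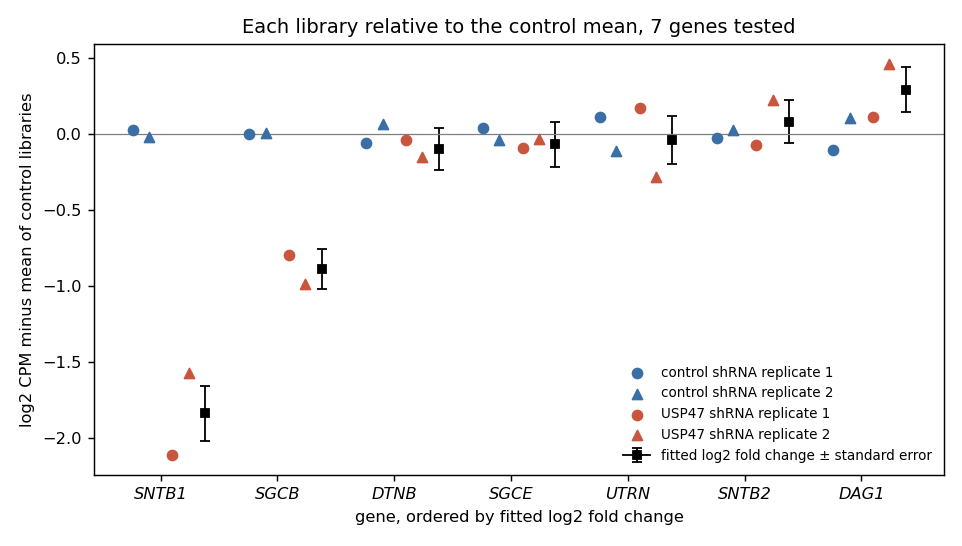
Log2 CPM of each library minus the mean of the 2 control libraries for the 7 genes tested, with circles for replicate 1, triangles for replicate 2, and squares for the fitted log2 fold change with its standard error. SNTB1 (-1.84) and SGCB (-0.89) lie apart from the other 5 genes, whose fitted values run from -0.10 to 0.29.

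Of the 9 genes, 7 passed the filter on low counts, and DMD and DTNA did not. With 0.05 as the limit for the adjusted p of edgeR, 2 of the 7, SNTB1 and SGCB, were called lower and 0 were called higher (0 were higher at an unadjusted p under 0.05 and 0 in DESeq2's Wald test). Among all 21932 genes tested, 9.56% were called lower and 6.52% higher. Both knockdown libraries lay below both controls for 2 of the 7 genes and above them for 1, DAG1, while 31.7% of all genes lay below and 29.3% above. These calls come from the contrast for which the set was assembled, and nothing is read from the counts. The median log2 fold change was -0.07 over the 7 genes and -0.0083 over all genes.

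SNTB1 and SGCB were called lower in all 10 alternatives tried, which changed the test, the scaling, the filter, the replicate term or the libraries used. All of them reuse libraries in which SNTB1 was chosen for its fall, so they are no independent support for it. The log2 fold change of SNTB1 lay between -2.12, without USP47 shRNA replicate 2, and -1.57, without USP47 shRNA replicate 1. For SGCB it lay between -0.98 and -0.79, in the same 2 fits but in the opposite order. DTNB and SGCE kept a value below 0 in each alternative (from -0.16 to -0.03 and from -0.14 to -0.03), while UTRN and SNTB2 took both signs.

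**Figure D3:**
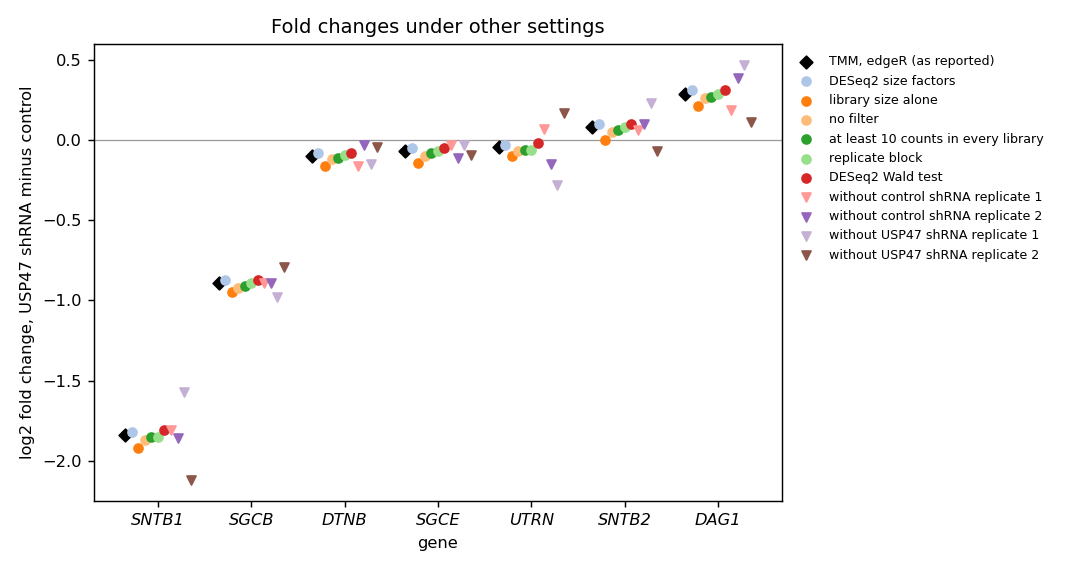
Log2 fold change of the 7 genes tested as reported (black diamonds) and under 10 other settings, with triangles for fits that left out 1 library. The values of SNTB1 stay between -2.12 and -1.57 and those of SGCB between -0.98 and -0.79, and UTRN and SNTB2 lie on both sides of 0.

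The 4 lists of other pathway genes are incomplete selections, so their counts and medians describe the listed genes and not the whole pathway. Among all 21932 genes tested, 9.56% were called lower and 6.52% higher. Of 7 further subunits (SNTG1, SNTG2, DRP2, SGCA, SGCD, SGCZ and SSPN), 4 could be tested, of which 0 were called lower (0 at an unadjusted p under 0.05 and 0 in DESeq2's Wald test) and 1 higher, with a median log2 fold change of 0.43. DRP2, a short relative of dystrophin best known from Schwann cells, was the gene that rose, from 15 and 13 counts to 50 and 35 (log2 fold change 1.65, standard error 0.30, adjusted p = 0.00622, by edgeR), and it remained at 0.374 ± 0.0726 TPM (SD, n = 2) in the knockdown, where UTRN stood at 9.51 ± 3.94 TPM. DESeq2's Wald test gave DRP2 a log2 fold change of 1.67 and no adjusted p. SGCD, the delta-sarcoglycan that pairs with beta-sarcoglycan, had 153 and 163 counts against 203 and 143 (log2 fold change 0.19, standard error 0.16). SGCA and SGCZ had at most 18 counts in a library, with log2 fold changes of 0.66 and -1.01 and standard errors of 0.40 and 0.59. SGCZ was called lower without USP47 shRNA replicate 1 (-2.91, adjusted p = 0.0338). SNTG1, SNTG2 and SSPN had between 0 and 4 counts in each library.

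Of the genes listed for the glycosylation of alpha-dystroglycan, 16 are reported and 14 were tested. Among these, edgeR called 0 lower and 0 higher, with 3 at an unadjusted p under 0.05, and DESeq2's Wald test called 0 in either direction. Beside these counts, edgeR called 9.56% of all genes lower and 6.52% higher at the adjusted limit. The share of all genes at an unadjusted p under 0.05 is not given here, so nothing is read from the 3. The median log2 fold change was 0.08. The 3 genes, named after their values were seen, were POMGNT1, which adds N-acetylglucosamine to the chain (log2 fold change -0.40, standard error 0.13, adjusted p = 0.0583), the kinase POMK (0.40, standard error 0.13, adjusted p = 0.0583) and DPM3, a subunit of the synthase that supplies the mannose (-0.51, standard error 0.23, adjusted p = 0.152). As the list is an incomplete selection, the counts do not say that the pathway as a whole was not altered.

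Among the 13 genes reported for extracellular ligands of dystroglycan and the proteins that form them, all were tested. Of these, 4 were called lower and 1 higher, beside 9.56% lower and 6.52% higher of all genes. The median log2 fold change of the list was 0. LAMA1, the laminin alpha-1 chain, had the largest fall, from 287 and 293 to 57 and 51 counts (log2 fold change -2.36, standard error 0.19, adjusted p = 0.000418, by edgeR). HSPG2 (perlecan), LAMA3 and SLIT2 were called lower with log2 fold changes of -0.80, -0.66 and -0.46, and LAMB2 was called higher at 0.79. LAMA1 was a minor chain, at 1.38 ± 0.245 TPM in control libraries, where LAMA2 stood at 27.1 ± 6.18 and LAMA5 at 40.3 ± 2.85 TPM (SD, n = 2 each). LAMA2 and LAMA5, named after their values were seen, had log2 fold changes of -0.04 (standard error 0.16) and 0.29 (standard error 0.14) and were not called. Without control shRNA replicate 1 the calls of LAMB2 (0.79, adjusted p = 0.0654), LAMA3 (-0.60, adjusted p = 0.169) and SLIT2 (-0.42, adjusted p = 0.431) were lost. That of SLIT2 was also lost without control shRNA replicate 2 (-0.50, adjusted p = 0.243). The fit without control shRNA replicate 1 gave the highest adjusted p over the alternatives for LAMB2, LAMA3 and SLIT2. The lowest, 1.8e-12, 8.4e-09 and 0.000104, came from edgeR with the replicate number as a block. That fit called 7422 genes, and the replicate numbers are not taken to pair the samples.

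Of 19 cytoplasmic partners of syntrophins, dystrophin and dystrobrevin, 16 were tested, 2 were called lower, 3 higher and 11 not at all, beside 9.56% lower and 6.52% higher of all genes, with a median log2 fold change of -0.16. MAST1, a kinase that binds the syntrophin PDZ domain, fell from 343 and 406 to 165 and 146 counts (log2 fold change -1.19, standard error 0.16, adjusted p = 0.00199, by edgeR). ANK3, an ankyrin that dystrophin binds, fell from 767 and 778 to 469 and 287 counts (log2 fold change -0.99, standard error 0.14, adjusted p = 0.00216). Called higher were ABCA1, a cholesterol exporter that beta-1-syntrophin binds, at 423 ± 7.92 against 604 ± 69.5 CPM (SD, n = 2 each, log2 fold change 0.51), the adaptor GRB2 (0.52) and the diacylglycerol kinase DGKZ (0.51). Of these 5 calls, those of MAST1 and ANK3 held in each alternative. Those of ABCA1, GRB2 and DGKZ were lost without control shRNA replicate 1 (log2 fold changes 0.53, 0.44 and 0.43, adjusted p = 0.411, 0.400 and 0.436) and without control shRNA replicate 2 (0.49, 0.60 and 0.59, adjusted p = 0.363, 0.145 and 0.171). The calls of GRB2 and DGKZ were also lost without a filter (adjusted p = 0.0514 and 0.0631). For ABCA1, GRB2 and DGKZ the lowest adjusted p over the alternatives came from the fit without USP47 shRNA replicate 1. Their log2 fold changes there were 0.64, 0.66 and 0.68. That fit holds 1 knockdown library, so the knockdown group has no spread of its own in it.

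Genes near the 9 loci were examined because position was not used in assembling the set. Some of these genes overlap a member, among them SNTB1, and whether they share reads with it was not tested. The counts are therefore not fully independent of the fall by which SNTB1 was chosen. Within 500 kb of any of them lay 107 other tested genes, of which 17 (15.9%) were called lower and 4 (3.74%) higher, beside 9.56% and 6.52% of all genes. These counts changed when single libraries were left out, and so did the number of calls over all genes. DESeq2's Wald test gave 10 neighbours lower and 3 higher, where it called 1173 of all genes lower and 1122 higher. Around SNTB1, 3 of 8 neighbours were called lower, namely the 2 overlapping noncoding RNAs and ENSG00000254343, which lies 479.5 kb away (log2 fold change -1.31, standard error 0.27, adjusted p = 0.0111, by edgeR). The nearest protein-coding neighbour that shares no base with SNTB1, MRPL13, had a log2 fold change of 0.03 and was named after its value was seen. MTBP, which was not called, lay below both controls in both knockdown libraries. SGCB had 4 tested neighbours, of which SPATA18, 13.0 kb away, fell from 59 and 68 to 17 and 11 counts (log2 fold change -2.12, standard error 0.27, adjusted p = 0.00128), and the other 3 were not called. Other neighbours with small p were EFR3B near DTNB (log2 fold change -1.91), PPP1R9A near SGCE (-1.15), CDH3 near SNTB2 (-1.87) and ZNF397 near DTNA (-0.56). LAMB2 (0.79) and its pseudogene LAMB2P1 (-1.54) near DAG1 may share reads, as may the pseudogene SUCLA2P3 (-2.60) near DTNB with its parent gene. The call of ZNF397 was lost without control shRNA replicate 1 (-0.51) or 2 (-0.62), and that of SUCLA2P3 without USP47 shRNA replicate 1 (-1.66). For ZNF397 the lowest adjusted p over the alternatives, 3.9e-05, came from edgeR with the replicate number as a block. For SUCLA2P3 the lowest came from the fit without USP47 shRNA replicate 2 (log2 fold change -4.05). CDH3 and SUCLA2P3 had no adjusted p in DESeq2's Wald test and were not tested where at least 10 counts in every library were required.

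Genes whose course over the 4 libraries was most like that of SNTB1 were of other kinds. By the Euclidean distance between log2 CPM values centred on the control mean, over 4 libraries and the 14479 genes whose average log2 CPM reached 1, with no test, the closest were IL17RD (distance 0.15), KIF1A (0.18), LINC03040 (0.20), EFR3B (0.20) and VANGL2 (0.21). IL17RD, a membrane antagonist of fibroblast growth factor signalling, had 19.5 and 19.2 CPM in control libraries and 4.33 and 5.78 CPM in knockdown libraries. VANGL2, a planar cell polarity protein, had 27.5 and 30.2 against 6.01 and 10.4 CPM.

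The markers of the labelled tissue were weak. Of 10 epithelial markers KRT18 and KRT19 were at or under 3 counts in every library. The summed level was between 14.3 and 15.8 CPM in control libraries and between 17.4 and 18.3 CPM in knockdown libraries. ESRP2 rose from 5.35 ± 0.434 to 11.3 ± 0.441 CPM, while CLDN7 fell from 3.18 ± 0.408 to 0.958 ± 0.0735 CPM (SD, n = 2 each). EPCAM fell from 0.634 ± 0.104 to 0.177 ± 0.0458 CPM, and the other epithelial markers tested were not called. ESRP2, CLDN7 and EPCAM were named after their values were seen. Of 9 gastric markers matched, 5 (MUC5AC, TFF1, TFF2, GKN1 and GKN2) were at or under 3 counts, and the sums lay between 9.34 and 12.0 CPM. The 8 mesenchymal markers summed to between 935 and 942 CPM in control and between 793 and 971 CPM in knockdown libraries, VIM giving the most. For muscle, the tissue in which the complex is best known, MYOD1, MYOG and MYH2 were at or under 3 counts. The summed level of 10 muscle markers was between 159 and 175 CPM with control shRNA and between 127 and 161 CPM with USP47 shRNA. Nearly all of it came from TTN, which stood at only 1.885 ± 0.296 TPM (SD, n = 2) in control libraries. CPM are not scaled to gene length, so the sums given here are not to be compared between lists. The 6 smooth muscle markers summed to between 67.7 and 70.4 and between 58.6 and 73.0 CPM, the 4 endothelial markers to at most 1.65 CPM and the 6 immune markers to at most 8.25 CPM in a library. Of the 7 epithelial markers tested, 2 were called lower and 1 higher. Of the 7 mesenchymal markers tested, 1 was called lower, FN1 (73.5 ± 0.495 against 29.1 ± 4.08 CPM), and 1 higher, SNAI2 (19.3 ± 2.23 against 27.3 ± 2.5 CPM). Of the 5 smooth muscle markers tested, 1 was called lower, ACTA2 (4.25 ± 0.321 against 2.22 ± 0.414 CPM), and 1 higher, TAGLN (4.46 ± 0.392 against 7.98 ± 0.741 CPM). All are given as control against knockdown (SD, n = 2 each) and were named after their values were seen. Among all genes, 9.56% were called lower and 6.52% higher. The part of these levels in the differences above was not tested.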

How the data were processed

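PolyA RNA of 4 HGC-27 libraries, 2 per group, was analysed from 1 table per library. According to the methods and processing notes, the authors checked reads with FastQC, trimmed bases of quality below 20, aligned with STAR 2.7.5c to hg19 and removed duplicate and low-quality reads with SAMtools 1.9. Picard 2.23.3, featureCounts and DESeq2 1.26.0 are also named. The annotation and the use of strand in counting are not given in the sources used here. The labels and the methods name different library kits, and the methods speak of triplicates where the labels give duplicates. Each table holds whole-number read counts per gene as deposited, without normalization, and FPKM and TPM that the authors computed from them.

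The counts were tested with edgeR 4.0.16 in R 4.3.3 (filterByExpr, TMM scaling, robust quasi-likelihood test, two-sided, Benjamini-Hochberg adjustment over the 21932 genes kept, threshold 0.05). CPM values use TMM-scaled library sizes, and a floor of 3 counts per library was set. Total counts were between 15649899 and 20140273. The script was tested on simulated data. Levels between genes were compared in TPM. Symbols, positions and overlaps were taken from gene tables and GENCODE v44 lifted to GRCh37, promoter windows from RefSeq.

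The 9 genes and the other lists were chosen with earlier results of these data known. Named were all 9 genes, USP47, the other subunits, up to 8 called genes of each other list by smallest p, up to 10 called neighbours within 500 kb, PEG10, and the 5 genes closest to SNTB1 in pattern. The alternatives were DESeq2 1.42.0, other scalings, filters, a replicate block and leaving out each library. Some genes of the other lists are not reported here and were left out of their counts.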

Additional observations from a re-analysis of the deposited data

How the results depend on the processing

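The 2 libraries per group limit every count. SNTB1 and SGCB were called lower in each of the 10 alternatives, which reuse the libraries by which SNTB1 was chosen. Followed singly were the tested genes of the 9, USP47, the other subunits, called genes of the other lists, up to 10 called neighbours and PEG10. None of their called values changed direction. Other genes named above were not followed singly. The share of SNTB1 in the beta-syntrophins is the same in FPKM and TPM by construction (46.9% and 18.9%). Over the alternatives, calls of the followed genes outside the 9 were lost 15 times and gained once, by SGCZ. DRP2, CDH3 and SUCLA2P3 had no adjusted p in DESeq2's Wald test. Of the 9, DAG1 was called higher in 2 alternatives. The cause of the changes given here was not tested.

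With the replicate number as a block, 7422 genes were called (3892 lower and 3530 higher). By list the block gave 1 of the 9 genes higher, 3 glycosylation genes lower and 2 higher, 4 partners lower and 6 higher, and 28 neighbours lower and 13 higher. The labels give the numbers no meaning, and the deviations of same-numbered libraries correlated at 0.213 across genes, from 2 pairs, so the numbers are not taken to pair the samples.

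DESeq2's Wald test called 2295 genes (1173 lower), 0 other subunits higher, since DRP2 had no adjusted p, and 10 neighbours lower. Library size alone gave 881 genes higher beside 1919 lower, where TMM gave 1430 and 2097, with 1 glycosylation gene lower and 2 neighbours higher. Under it, the log2 fold changes of all genes had a median of -0.0722. Without a filter 1 partner was called higher, and with at least 10 counts in every library 1 glycosylation gene was called lower.

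Leaving out 1 library at a time left 1230 to 7270 genes called, 907 to 3576 lower and 323 to 3770 higher. The counts ran from 0 to 1 for the 9 genes higher, 0 to 1 for other subunits lower, 0 to 3 for glycosylation genes lower and 0 to 2 higher, 2 to 4 for ligands lower and 0 to 5 higher, 2 to 3 for partners lower and 0 to 6 higher, and 10 to 26 for neighbours lower and 0 to 22 higher. In these fits the lone library of a group is assumed to vary like the other group.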
